A study of Arabidopsis thaliana with 9 samples.

Results

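BBX28, BBX29, BBX30, BBX31 and BBX32 of Arabidopsis thaliana, whose proteins carry a single B-box, were read by their gene identifiers (AT4G27310, AT5G54470, AT4G15248, AT3G21890 and AT3G21150). All 5 were found among the 24640 genes listed in the deposited files. Poly(A) RNA of whole seedlings had been sequenced from 3 genotypes with 3 libraries each: WT (ecotype Col-0), bbx202122, which carries mutations in BBX20, BBX21 and BBX22, and hy5. All seedlings were labelled as 4 days old and had shared the same treatment: 2 days of stratification at 4 °C, a 2 h pulse of white light at 90 µmol per square metre and second, 22 h of darkness, and then 3 days in red light at 80 µmol per square metre and second, with growth at 22 °C. The labels name an ecotype for WT only and give no mutant allele, so background differences between the lines cannot be told apart from the mutations.

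B-box proteins are zinc-binding plant regulators that act mostly through contact with other proteins. BBX20, BBX21 and BBX22, with a pair of B-boxes each, act together with the bZIP factor HY5 to promote seedling development in light. Several of the single B-box proteins work against it: BBX28 binds HY5 and lowers its binding to target promoters, and BBX32 binds BBX21. BBX30 and BBX31 are microproteins, little more than a B-box and a short tail, that join the flowering regulator CO to TOPLESS corepressors, and they also act as negative regulators of seedling greening and hypocotyl arrest.

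The genes differ in build. In the TAIR10.1 annotation BBX28 lies on chromosome 4 from 13675537 to 13677055 and has 2 exons and 223 codons, and BBX29, on chromosome 5 from 22114304 to 22115539, has 2 exons and 215 codons. BBX32 (chromosome 3, 7412445 to 7413727) has a single exon with 225 codons. The microprotein genes are the shortest: BBX30 (chromosome 4, 8708841 to 8709482) has 117 codons and BBX31 (chromosome 3, 7708833 to 7709933) has 121, both in 1 exon. Aligned end to end, the coding sequences of BBX30 and BBX31 matched at 70.5% of alignment columns, those of BBX28 and BBX29 at 59.1%, and that of BBX32 at 49.2% with BBX28 and 46.9% with BBX29. No transcript of the 5 shared an exact word of 50 bases with any other annotated transcript. Inexact matches and sequence outside the annotated spliced transcripts were not searched.

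A G-box (CACGTG, searched on both strands, a palindrome) is the site that HY5 and the phytochrome-interacting factors (PIFs) bind. Within 1000 bases before the annotated start it was found once each for BBX28, BBX29 and BBX30, against 14.8% of 27438 protein-coding genes. BBX31 had none there and 1 in its annotated leader, starting at base 110 of the transcript, and BBX32 had none in either place. The sites are shown with 12 bases on each side, on the strand of the gene, the G-box in capitals (RefSeq, TAIR10.1), to let the pairs be compared:
BBX28, chr4:13675011-13675040, plus strand, first base of the G-box at -514: cccaggtgggctCACGTGgctacgaagccc
BBX29, chr5:22116004-22116033, minus strand, first base of the G-box at -482: ccaggtgcggatCACGTGgttctaagtcta
BBX30, chr4:8708757-8708786, plus strand, first base of the G-box at -72: tcaatatttttcCACGTGtacaaccagttt
BBX31, chr3:7709807-7709836, minus strand, in the leader: gcaagattcatcCACGTGtccaacaacaac

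Outside the G-box, 14 of 24 flanking bases were identical between BBX30 and BBX31, 10 between BBX28 and BBX29, and 3 to 9 in the other 4 pairings. Counted to the start codon, along the transcript where it lies in the leader, the G-box began 112 bases before it in BBX30 and 161 in BBX31, but 830 in BBX28 and 706 in BBX29. BBX30 was also the only one of the 5 with a G-box in the last 300 bases before its start (7.1% of genes had one), and it had a T/G-box (CACGTT, both strands) in the same window (8.7% of genes). Neither a C-box (GACGTC) nor a PBE-box (CACATG) was found within 1000 bases for any of them. That window of BBX30 is given 5′ to 3′ because it holds both sites, in capitals, the T/G-box as its reverse complement.
BBX30, chr4:8708541-8708840, plus strand: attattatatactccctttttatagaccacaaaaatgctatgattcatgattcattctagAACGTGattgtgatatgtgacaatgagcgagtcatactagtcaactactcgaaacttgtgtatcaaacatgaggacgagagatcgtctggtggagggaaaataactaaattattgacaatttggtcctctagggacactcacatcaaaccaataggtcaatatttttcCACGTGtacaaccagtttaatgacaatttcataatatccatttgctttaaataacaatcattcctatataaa

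The start of BBX32 stands 48 bases after the end of MNS2, a gene on the same strand, and this gap has none of the motifs searched.
BBX32, chr3:7413728-7413775, minus strand: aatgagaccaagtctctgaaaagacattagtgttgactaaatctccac

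The microprotein genes share a further feature. Each stands tail to tail with a CONSTANS-like gene: 284 bases separate the end of BBX30 from that of COL11 (BBX9), and 486 bases separate BBX31 from COL12 (BBX10). The coding sequences of COL11 and COL12 matched at 64.3% of alignment columns. Only the microprotein gene of each pair had more than a few counts: over all 9 libraries COL11 had 1 count beside 92 of BBX30, and COL12 had 7 beside 439 of BBX31. The neighbours of BBX29, AT5G54460 and AT5G54480, had 1 and 2 counts, whereas those of BBX28 and BBX32 had 3215 to 14092.

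**Figure D1:**
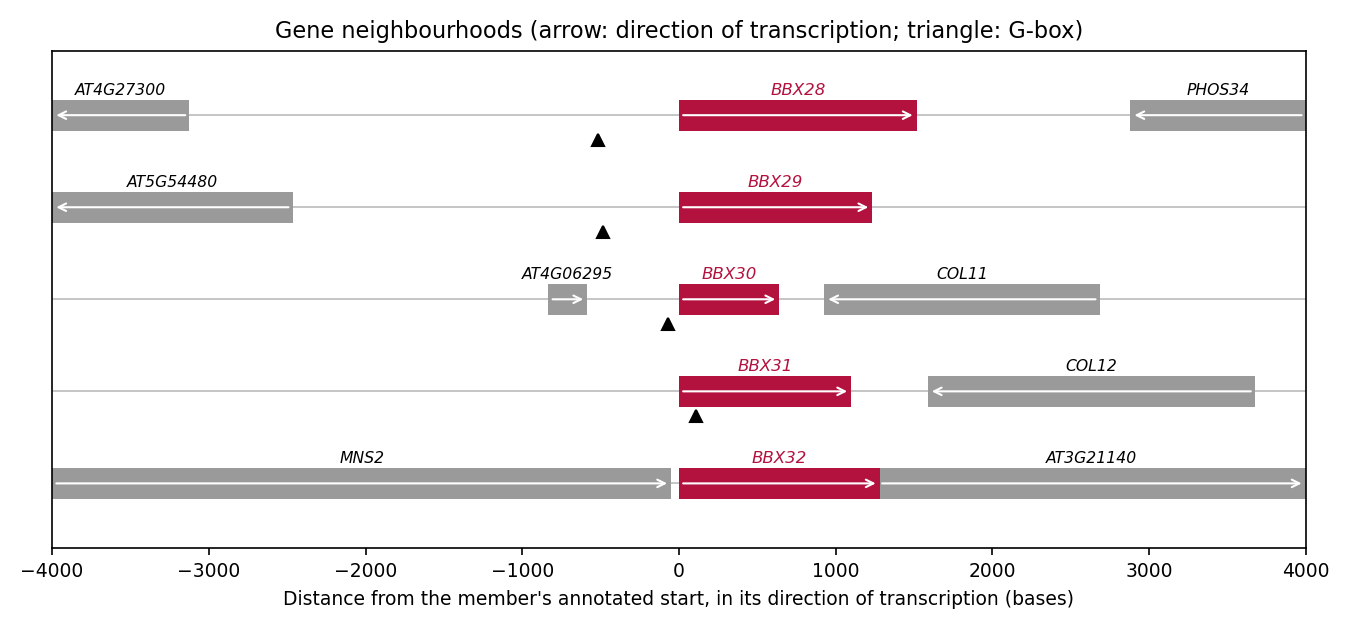
Map of each gene (red) and its nearest annotated neighbours (grey), as far as they fall within the drawn span, by distance in bases from the annotated start, in the direction of transcription. White arrows give the direction of transcription and triangles the G-boxes, at -514, -482 and -72 for BBX28, BBX29 and BBX30 and at 110 for BBX31; COL11 and COL12 face BBX30 and BBX31.

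Library totals were 21.6 to 22.8 in units of 1e6 expected counts, so that 3 counts came to 0.132 to 0.139 counts per 1e6 counts (CPM). The labels were checked on the mutated genes: HY5 was at 16.8 ± 1.5 CPM in WT, 8.23 ± 1.5 in hy5 and 6.34 ± 0.47 in bbx202122, so its level separates WT from the mutants but does not mark the hy5 libraries. In turn BBX21 and BBX22 were lower in bbx202122 by 1.97 and 3.42 on the log2 scale, while BBX20 was not called there (-0.16 ± 0.13, adjusted p = 0.48). Markers of green tissue (RBCS1A and LHCB1.3) summed to 25600 to 31400 CPM in every library. Root hair markers (EXPA7, EXPA18 and COBL9) summed to 46.0 to 51.1 CPM in WT, 21.4 to 26.0 in bbx202122 and 12.8 to 16.3 in hy5. All 3 were called lower in both mutants, beside 8.27% of all tested genes in bbx202122 and 19.8% in hy5. The sum of 5 seed storage genes was 13.3 to 50.9 CPM in WT, 9.81 to 20.7 in bbx202122 and 45.7 to 72.1 in hy5, with 1 of the 5 at 0 in each bbx202122 library. In such bulk samples fewer cells of a type and less RNA per cell cannot be told apart.

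Levels were compared between genes as deposited FPKM, which is scaled to transcript length. BBX28 was by far the most abundant, at 11.5 ± 1.6 FPKM in WT (SD, n = 3), 66.9 ± 6.2% of the summed FPKM of the 5 genes. It stood at the 58.4th percentile of listed genes. BBX31 followed with 1.94 ± 0.40 and BBX32 with 1.80 ± 0.18 FPKM, and their ranges overlapped. BBX30 was at 1.01 ± 0.42 and BBX29 at 0.903 ± 0.23 FPKM, again with overlapping ranges, the highest BBX30 library (1.49) lying just under the lowest of BBX32 (1.61). The percentiles of these 4 genes were 15.8 to 23.2. Among the B-box family they were low: the median of the other 26 listed members was 15.5 FPKM, and 3 of those 26 were under 2 FPKM in WT (COL11, COL12 and BBX23, with 1 to 7 counts in all libraries together), as were 4 of the 5 single B-box genes. BBX27, a further single B-box gene of the same subgroup, was at 23.6 ± 2.6 FPKM, and BBX26 was not in the files used here.

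**Figure D2:**
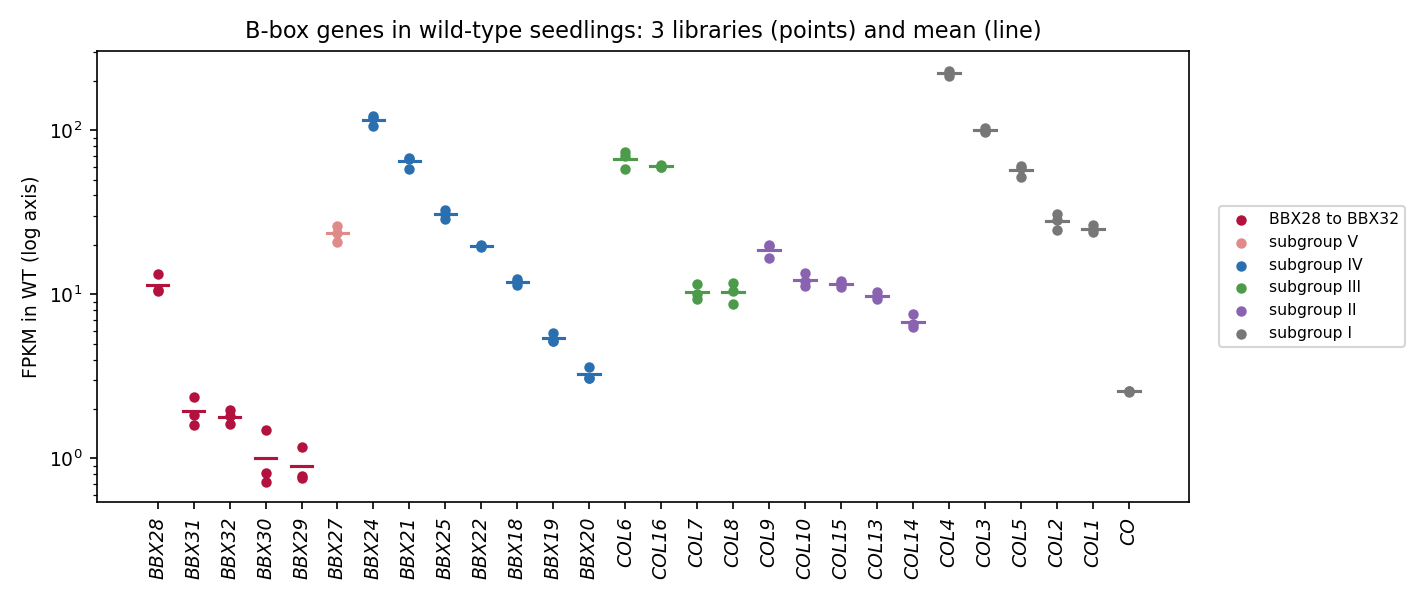
FPKM on a log axis of 28 B-box genes in the 3 WT libraries (points) with their mean (line), grouped by subgroup; COL11, COL12 and BBX23, with a 0 in at least 1 WT library, are not drawn. At the left, BBX29 to BBX32 sit at 0.903 to 1.94 FPKM, below CO at 2.56. BBX28 is at 11.5, and BBX27, a further single B-box gene, at 23.6.

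The order changed with genotype in FPKM. In bbx202122 it was BBX28 (11.3 ± 0.14), BBX31 (1.49 ± 0.31), BBX32 (0.93 to 1.06 over the libraries), BBX29 (0.743 ± 0.064) and BBX30 (0.507 ± 0.0058), and no neighbours in that order overlapped. In hy5 BBX31 (2.68 ± 0.30) stood above BBX29 (1.19 ± 0.20), BBX32 (1.03 ± 0.32) and BBX30 (0.740 ± 0.29), and only these last 3 overlapped in sequence. BBX32 thus went from level with BBX31 in WT to under it in both mutants. The 5 genes together summed to 17.1 ± 0.88 FPKM in WT, 15.1 ± 0.36 in bbx202122 and 17.4 ± 1.8 in hy5.

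The comparisons between genotypes used CPM and edgeR's quasi-likelihood test over all 20751 genes that passed the filter on low counts, as all 5 single B-box genes did. A gene is called at an adjusted p under 0.05 (Benjamini-Hochberg over all tested genes). Against WT, 1 of the 5 was called in bbx202122, where 16.9% of all genes were, and that gene was lower (8.27% of all genes were lower and 8.62% higher). In hy5 2 of 5 were called, where 39.5% of all genes were, 1 higher and 1 lower (19.6% and 19.8% of all genes). Between the mutants 2 of 5 were called, against 23% of all genes, and both were lower in bbx202122 (10.9% of all genes were lower and 12.1% higher). The CPM ranges did not overlap for 2 of the 5 in each comparison, beside 32.5%, 51.6% and 38.7% of all genes. With so few genes, shares of this size do not set the group apart from the background, and the results are those of single genes.

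BBX32, whose protein binds BBX21 and EMF1, was lower in both mutants. It had 51, 54 and 46 counts in the WT libraries, 30, 29 and 27 in bbx202122 and 36, 31 and 19 in hy5. Every mutant library lay below every WT library. On the CPM scale it fell from 2.27 ± 0.21 in WT to 1.26 ± 0.098 in bbx202122 (SD, n = 3 each), a log2 fold change of -0.85 ± 0.22 (SE; 95% interval -1.32 to -0.38; edgeR adjusted p = 0.016). In hy5 it fell to 1.36 ± 0.42 CPM (-0.74 ± 0.22; -1.21 to -0.27; edgeR adjusted p = 0.015). The mutants were not called different from each other (-0.11, 95% interval -0.62 to 0.41, edgeR adjusted p = 0.79), an interval that leaves room for a difference in either direction. Both comparisons share the WT libraries, and each call was lost when WT replicate 2 was left out (-0.79 and adjusted p = 0.063 in bbx202122, -0.68 and adjusted p = 0.054 in hy5). Leaving out bbx202122 replicate 3 (adjusted p = 0.052) or hy5 replicate 3 (adjusted p = 0.075) ended them too, and the direction against WT held under all 14 alternatives that could test it.

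The end of BBX32 overlaps the start of AT3G21140, on the same strand, by 13 bases. Neither that gene (-0.04 ± 0.08 in bbx202122, 0.09 ± 0.08 in hy5) nor MNS2 (-0.11 ± 0.06 and -0.09 ± 0.06) was called in either mutant. The root hair markers were lower in the same libraries, as given above. Their part in the difference of BBX32 was not tested.

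**Figure D3:**
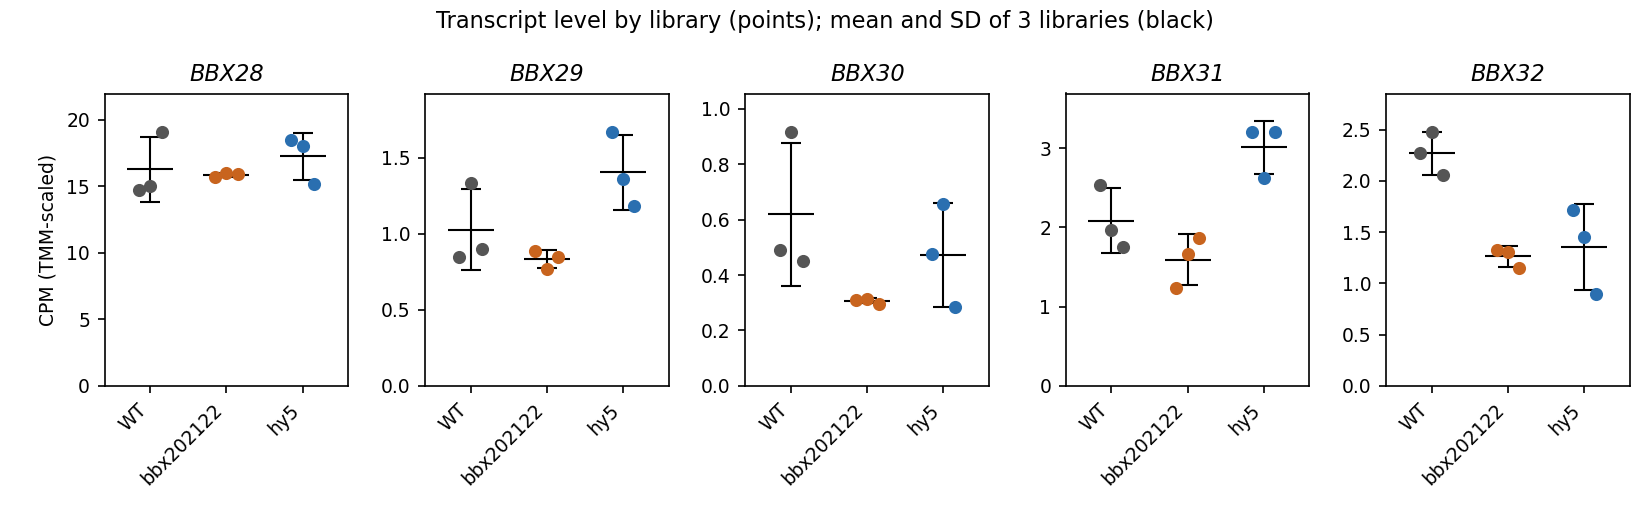
TMM-scaled CPM of each gene in the 9 libraries (points, coloured by genotype), with the mean and SD of 3 libraries in black; each panel has its own axis from 0. All mutant libraries of BBX32 lie under the WT libraries (2.06 to 2.48), and all hy5 libraries of BBX31 (2.63 to 3.21) lie above the others on this scale, the highest WT library being at 2.54.

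BBX31, one of the microproteins, moved apart in the mutants. Its counts were 57, 43 and 39 in WT, 28, 37 and 44 in bbx202122 and 67, 56 and 68 in hy5. In counts and in FPKM, hy5 replicate 2 lay within the WT range (56 against 57 counts, 2.34 against 2.38 FPKM for WT replicate 1), and WT and bbx202122 overlapped. Only on the TMM-scaled CPM scale were the hy5 libraries above all others, the lowest at 2.63 and WT replicate 1 at 2.54. Its level rose in hy5, to 3.01 ± 0.33 CPM against 2.09 ± 0.41 in WT (log2 fold change 0.53 ± 0.19; 95% interval 0.11 to 0.94; edgeR adjusted p = 0.041). In bbx202122 it was at 1.59 ± 0.32 CPM, and the difference from WT (-0.39 ± 0.21; -0.84 to 0.06) was not called (edgeR adjusted p = 0.24). Set directly against hy5, bbx202122 was lower by 0.92 ± 0.20 on the log2 scale, 0.53 times the hy5 level (95% interval 0.394 to 0.713; edgeR adjusted p = 0.0042).

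The difference of BBX31 between the mutants was called under all 14 alternative settings, leaving out each library included, with an adjusted p of 0.0029 to 0.019. The rise in hy5 over WT was called in 6 of 14 settings. It was lost, among other settings, without WT replicate 2, WT replicate 3, hy5 replicate 1 or hy5 replicate 3 (log2 fold change 0.41 to 0.48, adjusted p = 0.11 to 0.15), with DESeq2 (adjusted p = 0.1), with library size as the only scaling (adjusted p = 0.069) and with limma on log2(FPKM + 0.1) (adjusted p = 0.064). Seed storage genes also differed between the mutants, with 4 of 5 called lower in bbx202122, beside 10.9% of all genes. Their sums did not overlap between the mutants, while the sum in WT replicate 3 lay among those of hy5. Their part in the differences of BBX31 was not tested.

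BBX30, the other microprotein gene, was at the edge of what these libraries can measure. It had 11, 20 and 10 counts in WT, 7, 7 and 7 in bbx202122 and 10, 14 and 6 in hy5. The bbx202122 libraries were under all WT libraries, and the hy5 libraries spanned both. Mean levels came to 0.619 ± 0.26, 0.307 ± 0.0090 and 0.472 ± 0.19 CPM in the same order of genotypes. The log2 fold change in bbx202122 was -0.99 ± 0.41 and was not called (95% interval -1.88 to -0.11, edgeR adjusted p = 0.12). As a ratio of summed counts, 21 against 41, it was 0.499 with a 95% exact binomial interval of 0.280 to 0.863, which covers counting error only. Without WT replicate 2, which holds 20 of the 41 WT counts, the log2 fold change was -0.61 (edgeR adjusted p = 0.45). In hy5 the value was -0.38 ± 0.39 (edgeR adjusted p = 0.46), and it came to 0.01 without the same library. A difference between the mutants was not detectable at this depth (-0.61, 95% interval -1.55 to 0.33; -0.30 without hy5 replicate 2).

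BBX28, which lowers HY5 binding to its targets, showed no called difference at the best precision of the 5. Counts were 329, 326 and 425 in WT, 354, 356 and 373 in bbx202122 and 388, 384 and 323 in hy5, and the ranges overlapped in every comparison. The mean levels were 16.2 ± 2.5, 15.8 ± 0.19 and 17.3 ± 1.8 CPM. The fold against WT was 0.976 in bbx202122 (95% interval 0.840 to 1.13, edgeR adjusted p = 0.87) and 1.06 in hy5 (0.915 to 1.24, edgeR adjusted p = 0.52). These intervals leave out a change of the size measured for BBX32.

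BBX29, which is close to BBX28 in exon number and coding length, was far less abundant. It had 19, 29 and 20 counts in WT, 20, 17 and 20 in bbx202122 and 35, 29 and 25 in hy5. The hy5 libraries were above all bbx202122 libraries, and WT overlapped with both. Neither mutant was called against WT: the log2 fold change was -0.29 ± 0.27 in bbx202122 (edgeR adjusted p = 0.51) and 0.45 ± 0.25 in hy5 (edgeR adjusted p = 0.16). Between the mutants, 0.833 ± 0.061 CPM in bbx202122 stood against 1.40 ± 0.25 CPM in hy5 (-0.75 ± 0.26; 95% interval -1.29 to -0.20; edgeR adjusted p = 0.047). That call was kept in 5 of 14 settings. It was lost, among other settings, with DESeq2 (adjusted p = 0.14), with library size as the only scaling (adjusted p = 0.066), without a filter on low counts (adjusted p = 0.054), and when any of the 6 compared libraries other than hy5 replicate 3 was left out (adjusted p = 0.08 to 0.17).

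**Figure D4:**
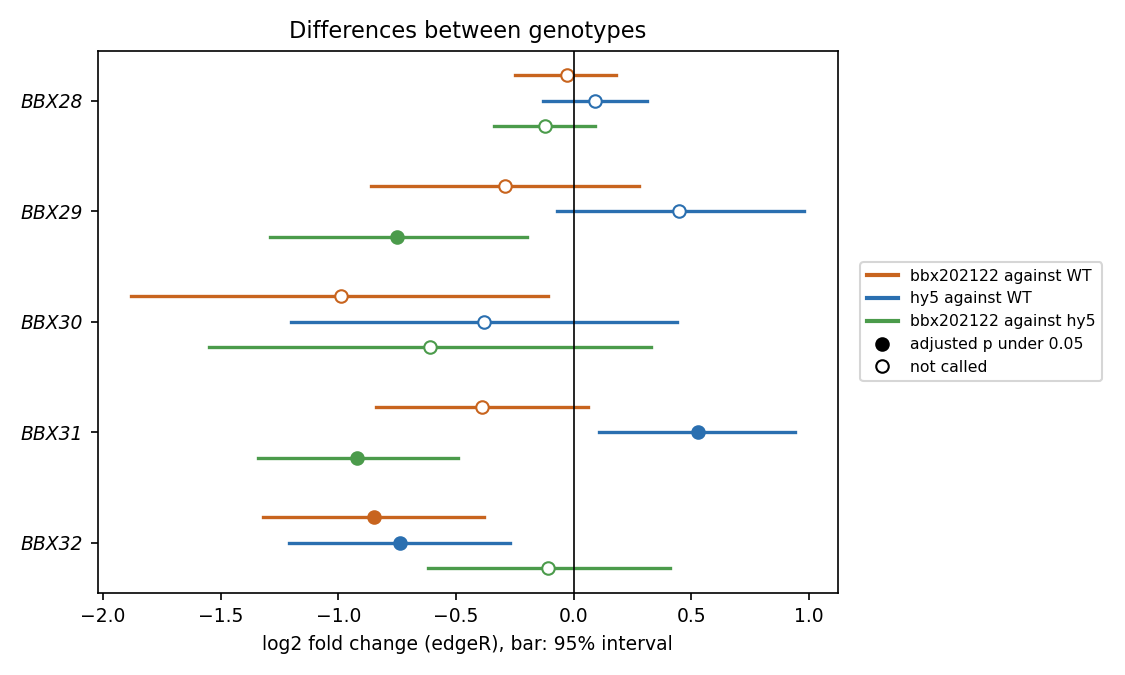
Fitted log2 fold change of each gene in the 3 comparisons (circle) with its 95% interval (bar); filled circles were called at an adjusted p under 0.05. BBX28 lies close to 0 with short bars, BBX32 lies below 0 in both mutants against WT, and BBX31 lies at 0.53 in hy5 and at -0.92 between the mutants.

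Other B-box genes were read for comparison. Of the 27, 23 were tested, with 4 higher and 10 lower in bbx202122 (60.9% called, against 16.9% of all genes; median -0.16) and 5 higher and 7 lower in hy5 (52.2%, against 39.5% of all genes; median 0.00). The 10 lower in bbx202122 include BBX21 and BBX22, which are mutated in that line. Over all genes the medians were 0.01 and 0.00, and over the 5 single B-box genes -0.39 and 0.09. Of all genes, 8.27% were called lower in bbx202122 and 19.8% in hy5, both against the same WT libraries. The share called lower in both was not counted, so no background stands beside the number of B-box genes lower in both. Called lower in both mutants, as BBX32 was, were 6 of the 23 other B-box genes. These were BBX18 (-0.51 ± 0.09 in bbx202122, -0.43 ± 0.09 in hy5) and BBX19 (-0.50 ± 0.12, -0.49 ± 0.12), of the group with a pair of B-boxes. BBX25, a further gene of that group, fell by 0.49 and by 0.20 on the log2 scale. The calls of BBX25 in hy5 and of BBX19 in bbx202122 did not hold under every alternative setting. COL7 (-0.54 ± 0.11, -0.78 ± 0.12), COL13 (-0.38 ± 0.09, -0.67 ± 0.09) and COL2 (-0.78 ± 0.08, -1.02 ± 0.08) were lower in both as well. BBX27, the nearest in class, was not called in bbx202122 (0.10 ± 0.09) or in hy5 (-0.06 ± 0.09). Called higher in hy5, as BBX31 was, were BBX21 and COL5 (each 0.45 ± 0.06), COL9 (0.36 ± 0.07), COL10 (0.34 ± 0.08) and COL15 (0.25 ± 0.07). The call of COL15 did not hold under every alternative setting. Of all genes, 19.6% were called higher there. Whether the single B-box genes differ from the other subgroups was not tested.

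**Figure D5:**
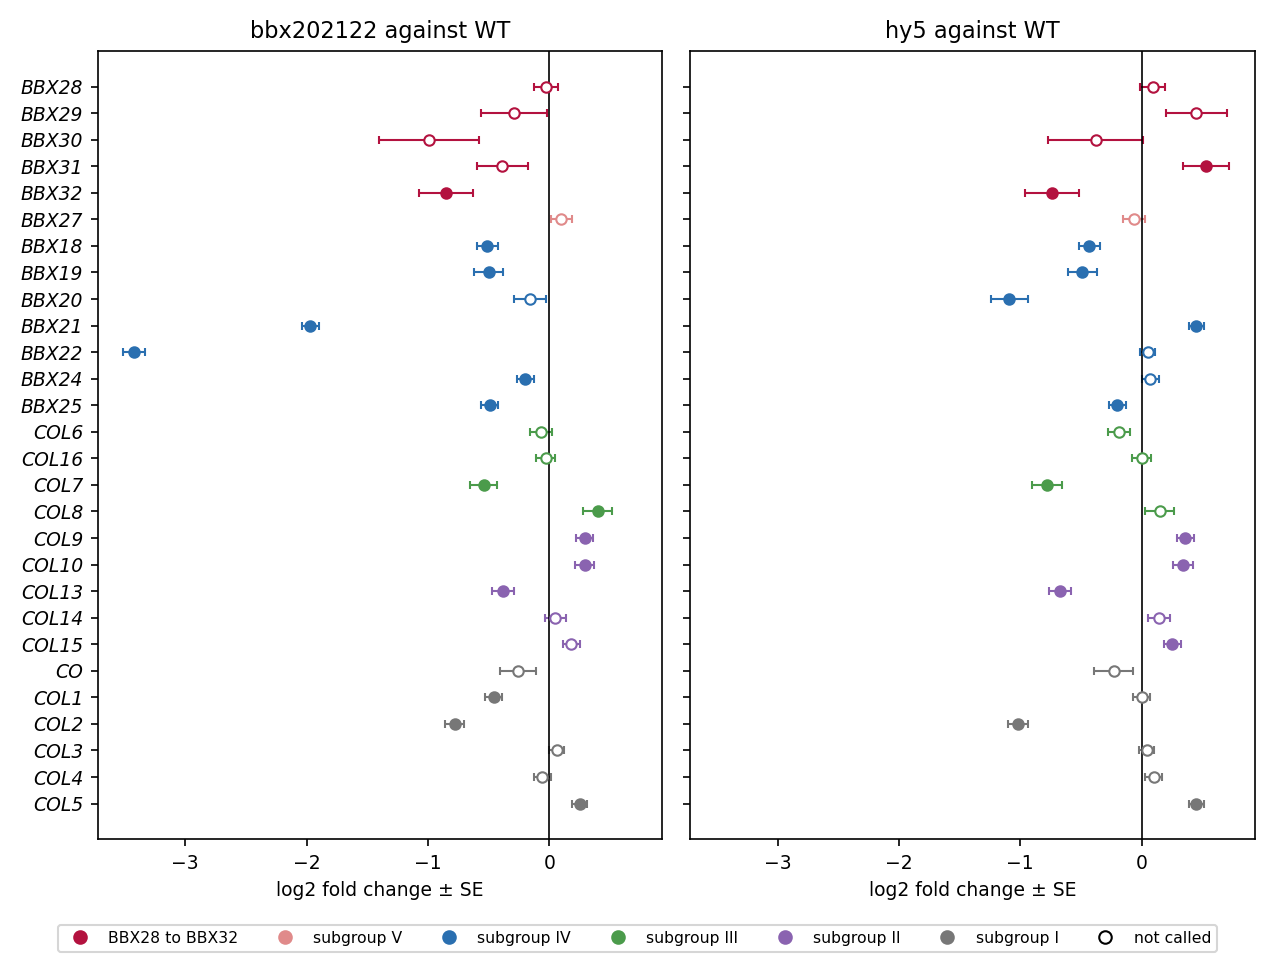
Log2 fold change ± SE (edgeR) of the 28 tested B-box genes in bbx202122 and in hy5 against WT, both against the same WT libraries; filled points were called. Bars of BBX29 to BBX32 are wider than those of the other genes, and BBX32 (-0.85 and -0.74) is called in both panels.

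The partners of these proteins were read in the same fit. The gene of HY5, to which BBX28 binds, was lower in both mutants (-1.40 ± 0.12 in bbx202122, -1.03 ± 0.12 in hy5), and so was HYH, its closest homologue (-1.20 ± 0.08, -1.30 ± 0.08). Of the 6 genes for the COP1, SPA and DET1 light repressors, which mark B-box proteins and HY5 for breakdown, SPA1 fell in both (-0.27 ± 0.06, -0.33 ± 0.06) and SPA3 in bbx202122 alone by call (-0.24 ± 0.05), with a called difference between the mutants (-0.22 ± 0.05). COP1 was at -0.01 ± 0.06 and 0.04 ± 0.06 and was not called. TOPLESS corepressor genes, partners of BBX30 and BBX31, rose slightly in hy5 in 2 of 5 cases, beside 19.6% of all genes called higher there. These were TPL (0.21 ± 0.07) and TPR2 (0.26 ± 0.07). None was called in bbx202122 against WT. Between the mutants TPR2 (-0.25 ± 0.07) and TPR4 (-0.16 ± 0.05) were called lower in bbx202122. Of the calls of TOPLESS corepressor genes, only that of TPR2 in hy5 against WT held under every alternative setting. The call of SPA3 between the mutants did not hold under every one either.

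Among genes of factors that bind the G-box, PIF3 (0.39 ± 0.08 in bbx202122, 0.88 ± 0.08 in hy5) and PIF4 (0.34 ± 0.06, 0.48 ± 0.06) rose in both mutants, while PIF1, PIF5 and PIF7 were not called. PHYA, the gene of phytochrome A, rose in both (0.30 ± 0.07, 0.57 ± 0.07), but its call in bbx202122 did not hold under every alternative setting. EMF1, the partner of BBX32, was not called (0.12 ± 0.07, 0.17 ± 0.07). In all, 3 of these 21 genes were higher and 4 lower in bbx202122, and 5 were higher and 3 lower in hy5, shares of 33.3% and 38.1% called, beside 16.9% and 39.5% of all genes. The hy5 count includes HY5, the mutated gene itself.

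CO, the flowering partner of the microproteins, was not called in bbx202122 (4.27 ± 1.1 against 5.14 ± 0.042 CPM in WT) or in hy5 (4.40 ± 0.19 CPM). In counts bbx202122 replicate 1, at 114, lay within the WT range of 111 to 116. On the CPM scale every mutant library nonetheless lay below every WT library. The lowest of WT was at 5.09 CPM and the highest of bbx202122 at 5.04. Ranges were apart in this way, in either direction, for 32.5% of all genes in bbx202122 and 51.6% in hy5. The CO targets FT and TSF had 0 to 2 counts per library, under the floor of 3 counts. SOC1, a floral integrator downstream of CO, rose in hy5 to 8.51 ± 1.2 CPM, from 4.24 ± 0.61 without the mutation (1.01 ± 0.13, edgeR adjusted p = 3.1e-05) and was not called in bbx202122 (3.68 ± 0.21 CPM). Like BBX31 it was lower in bbx202122 than in hy5 (-1.21 ± 0.14, edgeR adjusted p = 1.9e-05). The neighbours of BBX28, which itself was not called, did change: AT4G27300 rose in both mutants (0.50 ± 0.10, 0.33 ± 0.10) and PHOS34 rose in hy5 (0.33 ± 0.06).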

How the data were processed

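Per the submitters' processing notes, RSEM 1.2.12, Bowtie2 2.2.5 and HISAT were the authors' tools on the TAIR10 build; their roles and the HISAT version are not given. The deposited files hold expected counts per gene, unscaled, and FPKM values made by the authors, per library; the lowest FPKM listed was 0.01, and genes that a file leaves out were taken as 0. Whether counting used strand is not stated. The deposited transcript lengths equalled the spliced TAIR10.1 lengths for all 13944 genes with 1 transcript in both, and TAIR10.1 (RefSeq) gave coordinates, neighbours and sequences. Of the identifiers 24436 matched it and 204 did not.

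The deposited expected counts, rounded, went into edgeR 4.0.16 (R 4.3.3) with 1 mean per genotype over 9 libraries, TMM scaling, filterByExpr, 6 residual degrees of freedom. P-values are two-sided. Each log2 fold change has an SE, its size over the square root of F; levels have the SD over 3 libraries. The labels do not say that replicates were separate cultures, so p-values measure spread that may be technical. The fit was tested on simulated data. No 2 libraries were identical. Alternatives were RLE or no scaling, other filters, DESeq2 1.42.0, limma 3.58.1 on log2(FPKM + 0.1 or 1), the block, 6 libraries only, and each library left out. The named genes are the 5 members, called genes of fixed B-box, partner and CO target lists, nearest neighbours and the 3 most similar profiles per member. Members and lists were chosen with earlier results of these data known.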

Additional observations from a re-analysis of the deposited data

How the results depend on the processing

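In hy5 against WT 2 single B-box genes were called. The call of BBX31 was lost with library size as the only scaling (0.47), with DESeq2 (0.53) and with limma on log2(FPKM + 0.1) (0.46). That of BBX32 was kept in these settings. Of the 2 calls between the mutants, that of BBX29 was lost with library size as the only scaling (-0.68), without a filter on low counts (-0.75) and with DESeq2 (-0.76). That of BBX31 was kept. A filter of at least 5 CPM in 3 libraries left BBX28 alone, so 0 were called in every comparison and the other 4 have no value. Replicate numbers were not used as pairs in the main fit. Deviations of same-numbered libraries correlated at -0.09 to 0.18, over 0.1 in 1 of 9 pairs. Against WT no library correlated best with its own number. Between the mutants each bbx202122 library did (0.18, 0.09 and 0.05). Whether the numbers mark shared handling was not tested. With the replicate block the call of BBX31 in hy5 was lost (0.53, edgeR adjusted p = 0.059). So was that of BBX29 between the mutants (-0.74, edgeR adjusted p = 0.065). The calls of BBX32 against WT and of BBX31 between the mutants held. BBX32 between the mutants, not called, turned to 0.01 with limma on log2(FPKM + 0.1). The 6 called partners and regulators between the mutants became 1 with library size as the only scaling and 1 with limma at either pseudocount. The cause of these shifts was not tested.

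Leaving out each library in turn gave 0 to 1 called in bbx202122, 0 to 2 in hy5 and 1 to 2 between the mutants. The log2 fold change of BBX32 ranged from -0.92 to -0.79 in bbx202122, from -0.95 to -0.52 in hy5 and from -0.33 to 0.10 between the mutants (above 0 without hy5 replicate 1). BBX31 in hy5 ranged from 0.41 to 0.69 and BBX29 between the mutants from -0.86 to -0.61. BBX30 in hy5 ranged from -0.69 to 0.01, and BBX28 in bbx202122 from -0.10 to 0.09, above 0 without WT replicate 3. Partners called between the mutants were 2 to 6, with 2 without hy5 replicate 2. Over all genes, calls in bbx202122 were 2236 to 3277, the lowest without WT replicate 2, against 3504 with all libraries. In hy5 4070 genes were called higher and 4117 lower, and with library size as the only scaling 3118 and 5054; between the mutants these were 2510 and 2263, and 3756 and 1427. Counts of 6 to 68 per library limit BBX29 to BBX32.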

Other observations

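For each single B-box gene, the 3 genes with the most similar profile were sought among the 15783 genes whose mean reached 5 CPM, by the root-mean-square difference of log2(CPM + 0.5) over the 9 libraries after centring on WT. CSLB03 was nearest to BBX32 (difference 0.15), followed by AT1G26761 (0.15). EGL3, which encodes a bHLH regulator of flavonoid and epidermal genes, came after them (0.15). Its log2 fold changes were -0.67 in bbx202122 and -0.82 in hy5. Next to BBX31 stood P5CS1, a proline synthesis gene (0.14; -0.28 and 0.43), and LEA18, a late embryogenesis abundant gene (0.14; -0.24 and 0.43). TT5, the chalcone isomerase gene, was nearest to BBX29 (0.10; -0.25 and 0.40). SQP1 was nearest to BBX30 (0.14) and EMB2769 to BBX28 (0.05). With a pseudocount of 2 only 3 of the 15 genes, those of BBX28, came up again, so the others rest on the pseudocount that low counts need.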
